A study of Mus musculus with 12 samples.

Results

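*Dnmt1*, *Uhrf1*, *Dnmt3a*, *Dnmt3b* and *Dnmt3l* encode the core of the machinery that writes and copies DNA methylation, and their mRNA was compared between E14.5 mouse ovaries with a germ cell deletion of *Smad4*, with or without loss of *Stra8*, and control gonads of both sexes. The 5 genes were taken as the probes that carry their symbols on the array, which gave 8 of 41174 probes and 5 of 28867 genes. *Dnmt3b* rose 1.70-fold in the double mutant ovaries over control ovaries. *Dnmt3l* and *Dnmt3a* were the members that separated control testes from control ovaries, by 117-fold and 1.92-fold. *Dnmt1* and *Uhrf1* did not pass the test in any of 5 comparisons.

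DNMT1 copies methylation onto the new DNA strand after replication, and UHRF1 brings it to hemimethylated sites. DNMT3A and DNMT3B add methylation to unmethylated DNA, and DNMT3L has no catalytic activity of its own but binds and stimulates them. Primordial germ cells lose most of their methylation before sex differentiation. Male germ cells then regain it in the fetal testis, where *Dnmt3l* is a known marker of prospermatogonia, whereas oocytes regain it only during growth after birth.

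RNA from 1 pair of gonads was hybridised to each of 12 single-colour arrays, 3 per group. All animals had a mixed background, received tamoxifen through the mother at E9.5 and E10.5, and carried at least 1 mutant *Stra8* allele. The control testes were Smad4Flox/+ StellaMerCreMer Stra8+/-, whereas the control ovaries differed from each other: replicate 1 shared that genotype, replicate 2 was Smad4Flox/+ Stra8+/- and replicate 3 was Smad4Flox/Flox Stra8+/-, the last 2 with no Cre in their labels. *Smad4 (Stella)* ovaries were Smad4flox/floxMerCreMer Stra8+/−, and the double mutant (DKO) ovaries were Smad4flox/floxMerCreMer Stra8−/−. Cre from the *Stella* promoter acts in germ cells, so the somatic cells of every ovary kept *Smad4*, and the study describes the deletion in germ cells as incomplete. A *Stra8* single mutant was not analysed here, so that loss of *Stra8* was compared only on the *Smad4*-deleted background, as DKO against *Smad4 (Stella)* ovaries.

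Levels are log2 of the background-corrected intensity of a probe minus the 75th percentile of its array (a relative log2 level), and differences are on the log2 scale with a 95% confidence interval. Genes were called, as higher (rose) or lower (fell), when limma's adjusted p was below 0.05 with groups 1.5-fold or more apart. The 75th percentile lay between 476 and 997 intensity units, 58.8% to 70.7% of probes were well above background, and 0 spots were saturated. The arrays sat on 3 slides: all testes with control ovary 1, control ovaries 2 and 3 with DKO ovaries 1 and 2, and the *Smad4 (Stella)* ovaries with DKO ovary 3. *Smad4* itself lay between 1.96 and 2.42 on all 12 arrays, which does not check a deletion limited to germ cells. *Stra8* was at 6.16 to 6.71 in control ovaries and 5.28 to 5.61 in DKO ovaries (log2 difference -1.02, limma adjusted p = 0.0027), and whether its probe lies in the deleted part was not tested. Somatic markers matched the labelled sex: the mean over 7 Sertoli genes was 0.87 to 1.02 in testes and -3.40 to -2.78 in all ovaries.

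Upstream sequences were searched because STRA8 and SMAD4 both act on transcription, and the windows printed, 1 of 3 for *Dnmt3l* and the only one of *Dnmt3b*, were chosen because each held 2 matches to a motif of these factors. RefSeq (GRCm38.p6) lists 12 start sites for the 5 genes, and windows of 300 bases, from 250 before to 50 after the start, were searched on both strands. STRA8 is known to bind CNCCTCAG, a motif in 7.94% of the 32851 windows of all genes, and SMAD proteins a GC-rich motif, GGCGCC, in 11.9%. Of the 12 member windows only 1, of *Dnmt3l*, held CNCCTCAG, at 157 and 88 bases before the start. GGCGCC was found in the *Dnmt3b* window at 70 and 16 bases before the start, in each of 3 *Dnmt3a* windows and in 1 of 3 *Dnmt1* windows. The 250 bases before the start are printed 5′ to 3′, with matches to either motif in capitals. The first lies at chr10:78049592-78049841 on the plus strand and the second at chr2:153649199-153649448 on the plus strand.
Dnmt3l: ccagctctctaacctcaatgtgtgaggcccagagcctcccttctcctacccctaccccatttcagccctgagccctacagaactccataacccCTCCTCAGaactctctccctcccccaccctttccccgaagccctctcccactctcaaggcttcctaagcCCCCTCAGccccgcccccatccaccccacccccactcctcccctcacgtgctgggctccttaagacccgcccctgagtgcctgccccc
Dnmt3b: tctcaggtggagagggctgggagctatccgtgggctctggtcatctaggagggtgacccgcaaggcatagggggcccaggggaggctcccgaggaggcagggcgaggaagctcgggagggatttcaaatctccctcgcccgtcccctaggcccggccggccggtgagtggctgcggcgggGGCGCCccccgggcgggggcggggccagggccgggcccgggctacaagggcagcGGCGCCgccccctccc

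The windows also differed in CpG content. The *Dnmt3b* window held 30 CpG dinucleotides, more than 88.3% of all windows, and the 3 *Dnmt3a* windows held 18 to 47. The 3 *Dnmt3l* windows held only 3 to 6, below the median of 7 over all genes. The E2F motif TTTCGCGC, present in 0.323% of all windows, was found in 1 window of *Dnmt1* and 1 of *Uhrf1*. This pair is expressed with DNA replication in cycling cells, and its Pearson r over the 12 arrays was 0.037. Another E2F form, TTTGGCGC (0.514% of all windows), was found in 1 window of *Dnmt1* and in no window of *Uhrf1*. The GC box GGGCGG, in 35.7% of all windows, was found in at least 1 window of every member. These matches describe letters in a window and say nothing of binding.

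*Dnmt3l* is read by 1 probe, at chr10:77526112-77526171 of mm9. Its relative log2 level was 1.65, 2.53 and 2.18 in the 3 control testes. It was -4.95, -4.43 and -4.86 in the control ovaries, at intensities of only 15.4 to 35.1 units, and still well above background on all 3 arrays. The DKO ovaries gave -2.19, -3.65 and -4.31, in the order of replicates 1 to 3. The *Smad4 (Stella)* ovaries gave -4.54, -6.80 and -5.85, and only the first of these was well above background. Testes lay far above every ovary. All 3 DKO arrays lay above all control ovaries, but DKO ovary 3 did so by little, and the *Smad4 (Stella)* arrays overlapped the control ovaries.

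Control testes exceeded control ovaries in *Dnmt3l* by 6.87 (95% confidence interval 5.54 to 8.19, limma adjusted p = 7.6e-06). DKO ovaries exceeded control ovaries by 1.36 (0.04 to 2.69), a 2.57-fold difference that did not pass the test (limma adjusted p = 0.13). Left out in turn, the 6 arrays gave differences from 0.77 to 1.83, none of them called, and the lowest was without DKO ovary 1. Within the slide that held both groups the difference was 1.72 for 2 arrays against 2. The *Smad4 (Stella)* ovaries differed from control ovaries by -0.99 (-2.31 to 0.34, limma adjusted p = 0.38).

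DKO ovaries exceeded *Smad4 (Stella)* ovaries in *Dnmt3l* by 2.35 (1.02 to 3.68, limma adjusted p = 0.029), with only 1 of the 3 *Smad4 (Stella)* arrays well above background. The call was lost without DKO ovary 1 (1.75), DKO ovary 2 (2.48), *Smad4 (Stella)* ovary 2 (1.81) or *Smad4 (Stella)* ovary 3 (2.29). The only DKO array on the slide of the *Smad4 (Stella)* ovaries exceeded them by 1.42. DKO ovaries remained below testes (limma log2 difference -5.50, adjusted p = 6.1e-05), a 45.4-fold difference, and no slide held both of these groups. In whole gonads, fewer cells of a type and less RNA per cell cannot be told apart, for *Dnmt3l* or any gene below.

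*Nanos2*, which encodes an RNA-binding protein of male germ cells, is shown beside *Dnmt3l* for comparison. Its levels were -2.18, -2.17 and -3.70 in the DKO ovaries, so that DKO ovary 3 was the lowest for both genes. It was not well above background in any control ovary and was at least 7.45-fold higher in DKO ovaries (means -2.69 and -7.59, limma adjusted p = 0.00035). In testes *Nanos2* lay between -0.55 and 0.40, at least 43.0-fold above control ovaries. Thus in the same 3 DKO arrays the difference from control ovaries passed the test for *Nanos2* and did not for *Dnmt3l*, and the difference between these 2 changes was not tested.

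**Figure D1:**
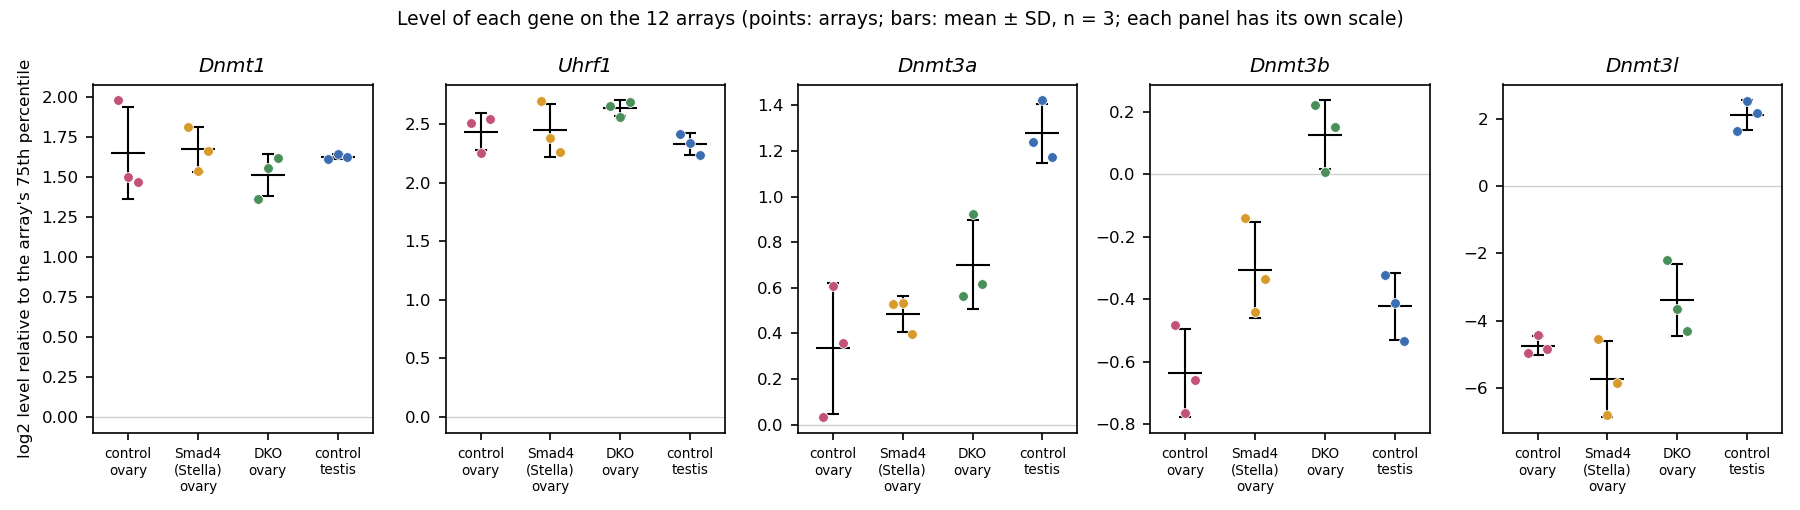
Relative log2 level of each gene on the 12 arrays (vertical axis, own scale per panel) in the 4 groups (horizontal axis), with points for arrays and bars for mean ± SD (n = 3). *Dnmt3l* and *Dnmt3a* are highest in control testes, *Dnmt3b* is highest in DKO ovaries with all 3 arrays between 0.0076 and 0.22, and the groups of *Dnmt1* overlap.

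*Dnmt3b* is also read by 1 probe, at chr2:153513083-153513142 of mm9, which was well above background on all 12 arrays. The control ovaries had relative log2 levels of -0.48, -0.76 and -0.66, and the *Smad4 (Stella)* ovaries of -0.14, -0.44 and -0.34. The DKO ovaries read 0.22, 0.0076 and 0.15, and the testes -0.32, -0.41 and -0.53. Every DKO array was higher than all 9 others. The *Smad4 (Stella)* arrays lay above the control ovaries without overlap and mingled with the testes, whose lowest array overlapped the control ovaries. No slide held *Smad4 (Stella)* ovaries with control ovaries or testes, so that group and slide cannot be told apart in these comparisons.

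DKO ovaries exceeded control ovaries in *Dnmt3b* by 0.76 (95% confidence interval 0.50 to 1.02, limma adjusted p = 0.0011), or 1.70-fold. The difference was 0.83 within the shared slide and 0.70 to 0.84 with any 1 of the 6 arrays left out, and it was called each time. It was also called relative to *Ddx4* (0.62, limma adjusted p = 0.035), the germ cell gene on which the study scaled its RT-qPCR, a setting added after the data were seen. Without scaling between arrays it was 0.95 and was not called (limma adjusted p = 0.078). Of 12 germ cell markers 6 rose and 1 fell in DKO ovaries, where 6.71% and 7.94% of all genes were called higher and lower. The mean of these 12 was 0.96 to 1.36 against -0.39 to 0.45 in control ovaries. The largest changes in DKO ovaries were in *Nanos3* (3.82), *Dnd1* (2.49) and *Tdrd5* (2.49). By contrast, *Ddx4* differed by 0.14 (-0.20 to 0.49), *Dazl* by -0.08 and *Mael* by 0.03. In testes, where *Dnmt3b* was not called, 6 of these 12 markers rose and 2 fell, beside 17.2% and 16.7% of all genes. Of the lists for other cells, 0 of 7 pregranulosa, 0 of 7 Sertoli, 0 of 5 fetal Leydig and 0 of 6 endothelial markers were called in DKO ovaries by limma, with 1, 0, 0 and 0 at an unadjusted p under 0.05. *Cd68* of 5 macrophage markers (0.72) and *Lhx1* of 4 mesonephric markers (1.54) rose, and the erythroid marker *Hbb-y* (-1.15) fell. The part of these markers in the *Dnmt3b* result was not tested beyond *Ddx4*.

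The other differences of *Dnmt3b* were smaller. DKO ovaries exceeded *Smad4 (Stella)* ovaries by 0.43 (0.17 to 0.69, limma adjusted p = 0.038) and testes by 0.55 (0.29 to 0.81, limma adjusted p = 0.0043), both past the p threshold but under 1.5-fold. The difference from testes was called without control testis 1 (0.60) or DKO ovary 2 (0.61). Relative to *Ddx4*, which was itself lower in testes (-0.57), the difference between DKO ovaries and testes was -0.16. Control testes then exceeded control ovaries by 0.78 (limma adjusted p = 0.0028). On that scale the median of all genes was 0.59 in testes, and 8296 of 18665 genes were called higher. The place of *Dnmt3b* above testes therefore depended on the scale. *Smad4 (Stella)* ovaries exceeded control ovaries by 0.33 (0.07 to 0.59, limma adjusted p = 0.17), and testes by 0.21 (-0.05 to 0.47, limma adjusted p = 0.16) over control ovaries, so that neither of these neighbours in the order differed from control ovaries past the threshold.

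**Figure D2:**
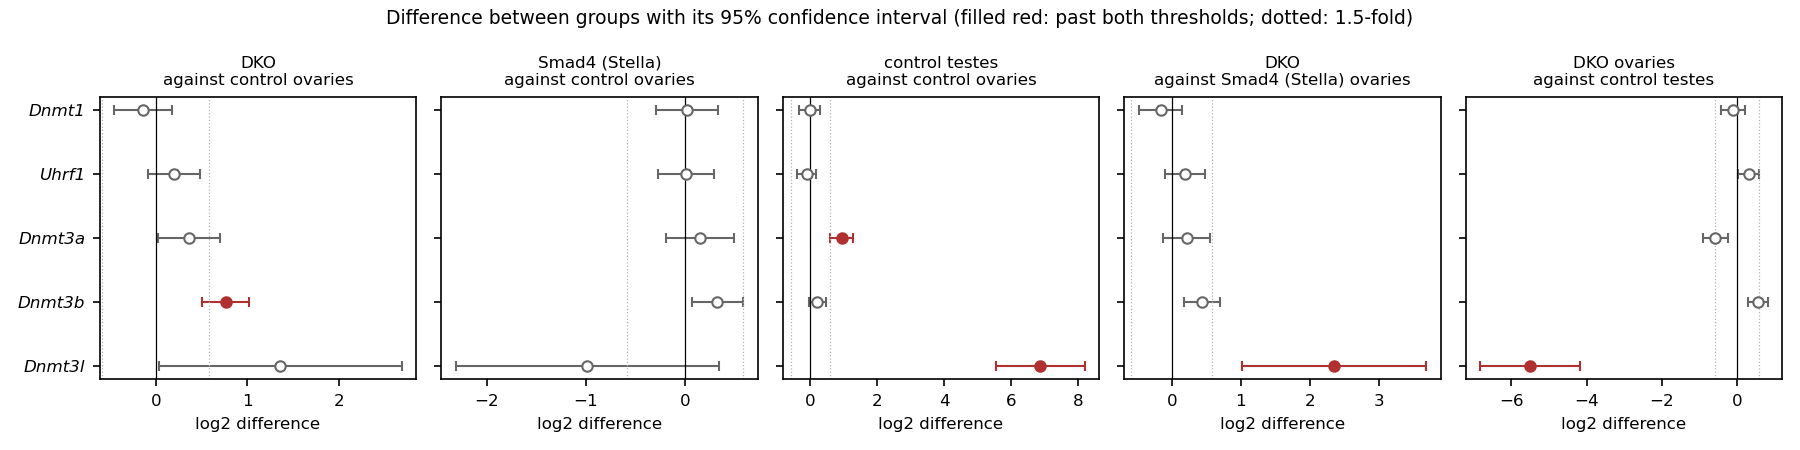
Log2 difference of each gene (horizontal axis, own scale per panel) in the 5 comparisons, with 95% confidence intervals from limma; filled red points are past both thresholds and dotted lines mark 1.5-fold. *Dnmt3b* is the one gene past both in DKO against control ovaries (0.76), and *Dnmt3a* (0.94) and *Dnmt3l* (6.87) are in control testes against control ovaries.

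*Dnmt3a*, averaged over its 3 probes, was at 1.24, 1.42 and 1.17 in control testes and at 0.03, 0.61 and 0.36 in control ovaries. The *Smad4 (Stella)* ovaries gave 0.53, 0.53 and 0.40, and the DKO ovaries 0.56, 0.92 and 0.61. Testes were above all other arrays, while the DKO ovaries overlapped the control ovaries, since DKO ovary 1 was below control ovary 2. Testes exceeded control ovaries by 0.94 (95% confidence interval 0.60 to 1.28, limma adjusted p = 0.00056), and by 1.24 within the slide that held all testes and control ovary 1. DKO ovaries exceeded control ovaries by 0.37 (0.03 to 0.71), which did not pass (limma adjusted p = 0.12), and the *Smad4 (Stella)* ovaries by 0.15 (limma adjusted p = 0.61). DKO ovaries were below testes (limma log2 difference -0.58, adjusted p = 0.014), or 1.49-fold, just under the fold required. That call was made without control testis 1 (-0.60), control testis 3 (-0.63) or DKO ovary 2 (-0.69).

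The 3 probes of *Dnmt3a* were not all called alike in the DKO ovaries. They are placed on chromosome 12 of mm9. The 60 bases of probe A_52_P76146 map to chr12:3906868-3907649, a span of 782 bases, so that it crosses an intron and reads spliced RNA. Its sequence is printed, in lower case throughout, to show which part of the transcript was read by the probe without a change in DKO ovaries past the threshold.
A_52_P76146: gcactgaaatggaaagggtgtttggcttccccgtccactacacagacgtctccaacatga
Probes A_52_P169048 (chr12:3908227-3908286) and A_52_P30497 (chr12:3912590-3912649) each map to a single stretch of 60 bases at higher coordinates, and the first has a stop codon in all 3 forward reading frames.

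In DKO ovaries A_52_P169048 read 0.70, 0.94 and 0.47, above control ovaries at -0.58, 0.11 and -0.03 and below testes at 1.25, 1.56 and 1.28. The *Smad4 (Stella)* ovaries, at 0.34, 0.33 and 0.15, lay between control and DKO ovaries without overlap, although no slide held both *Smad4 (Stella)* and control ovaries. For this probe DKO ovaries exceeded control ovaries by 0.87 (0.46 to 1.28, limma adjusted p = 0.0071 over all probes) and testes did by 1.53 (1.12 to 1.94, adjusted p = 7.5e-05). Over all probes 6.46% were called higher in DKO ovaries and 16.6% in testes. The DKO call held with each of the 6 arrays left out (0.67 to 1.01), but it was lost without scaling between arrays (1.06, limma adjusted p = 0.15), with only the 2 groups in the model (limma adjusted p = 0.059) and with the methods' t-test (adjusted p = 0.14).

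The probe across the intron, A_52_P76146, differed by 0.12 between DKO and control ovaries (-0.48 to 0.72), with overlapping arrays. In testes it was higher than in control ovaries by 0.95 (0.35 to 1.55, limma adjusted p = 0.015), a call lost without control ovary 1 (0.69) or control testis 2 (0.87). It was lower in DKO ovaries than in testes (limma log2 difference -0.83, adjusted p = 0.035), where A_52_P169048 was also lower (-0.66, limma adjusted p = 0.018), against 12.7% of probes called lower. The call of A_52_P169048 below testes was lost without control testis 2 (-0.56) or DKO ovary 3 (-0.54). That of A_52_P76146 was lost without control testis 1 (-0.80), control testis 2 (-0.75), DKO ovary 1 (-0.69) or DKO ovary 3 (-0.77). A_52_P30497 differed by 0.11 in DKO ovaries and 0.35 in testes (limma adjusted p = 0.013, under 1.5-fold). The DKO change of A_52_P169048 exceeded that of A_52_P76146 by 0.75, and the within-array differences of the 2 probes did not overlap between DKO and control ovaries (exact two-sided permutation p = 0.1, the smallest that 3 arrays against 3 allow). Thus A_52_P169048 was called in DKO against control ovaries and the other *Dnmt3a* probes were not. Whether the probes themselves differed was not settled, since that permutation p cannot fall below 0.1.

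**Figure D3:**
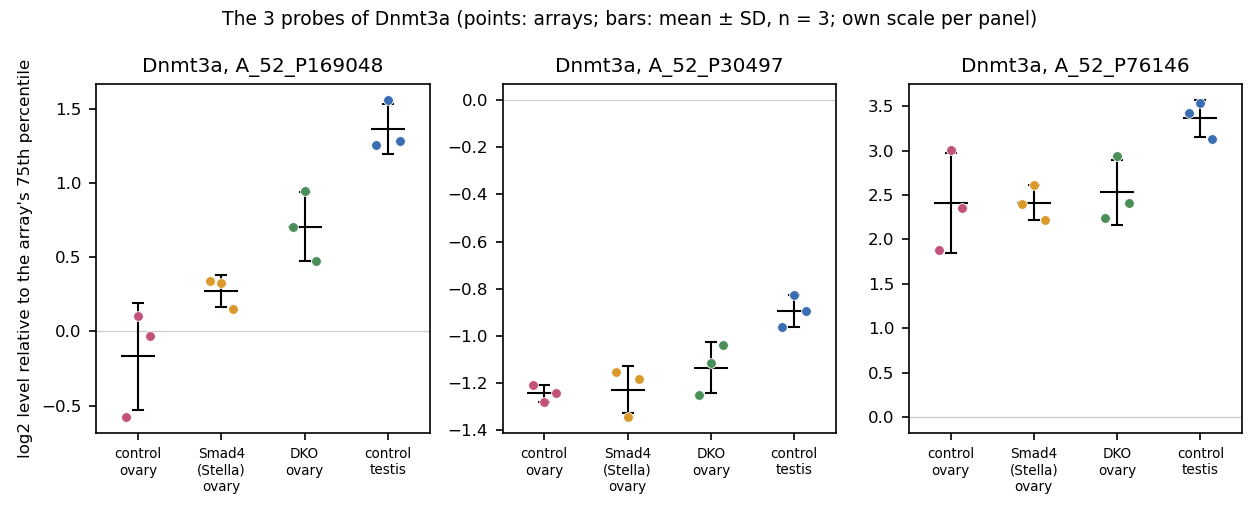
Relative log2 level of the 3 *Dnmt3a* probes (vertical axis, own scale per panel) in the 4 groups (horizontal axis), with points for arrays and bars for mean ± SD (n = 3). A_52_P169048 rises from control ovaries (-0.58 to 0.11) through DKO ovaries (0.47 to 0.94) to testes (1.25 to 1.56), whereas the DKO and control ovaries overlap for the other 2 probes.

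*Dnmt1* has 1 probe, mapped to chr9:20711973-20712341 of mm9, a span of 369 bases for a 60-base probe and so across an intron. Control ovaries 1 to 3 had relative log2 levels of 1.98, 1.5 and 1.47, and the 3 *Smad4 (Stella)* ovaries 1.81, 1.54 and 1.66. The DKO ovaries read 1.36, 1.55 and 1.62, close to the testes with 1.61, 1.64 and 1.62. The groups overlapped, and control ovary 1 was the highest array. The 5 differences lay between -0.16 and 0.02. For DKO against control ovaries the difference was -0.14 with an interval of -0.45 to 0.18 (limma adjusted p = 0.54) or a fold of 0.730 to 1.13.

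*Uhrf1* has 2 probes, 60 bases each, at chr17:56462554-56462613 and chr17:56462657-56462716 of mm9. Control ovaries had means of 2.51, 2.25 and 2.55 over both probes, and *Smad4 (Stella)* ovaries 2.69, 2.38 and 2.26. The DKO ovaries read 2.65, 2.56 and 2.69, while testes read 2.42, 2.33 and 2.23. DKO ovaries lay above control ovaries and testes without overlap, by small amounts. The difference from control ovaries was 0.20 (-0.08 to 0.48, limma adjusted p = 0.31) and that from testes 0.31 (0.02 to 0.59, limma adjusted p = 0.085). Both probes gave a difference of the same sign, 0.17 and 0.23 against control ovaries. Against testes A_51_P491742 gave 0.22 (limma adjusted p = 0.30 over all probes). A_52_P314705 gave 0.40 there (0.13 to 0.66, limma adjusted p = 0.024), past the p threshold but under 1.5-fold.

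By comparison, 1 of the 5 members was called higher in DKO than in control ovaries (*Dnmt3b*) and 0 lower, where 6.71% of 18666 genes were called higher and 7.94% lower by limma. At an unadjusted p under 0.05, *Dnmt3a* and *Dnmt3l* also differed. In control testes against control ovaries 2 were higher (*Dnmt3a* and *Dnmt3l*) and 0 lower, where 17.2% and 16.7% of genes were called. In *Smad4 (Stella)* against control ovaries 0 were called by limma or by the methods' t-test, with *Dnmt3b* at an unadjusted p of 0.018, where 0.134% of genes were called higher and 0.145% lower. In DKO against *Smad4 (Stella)* ovaries 1 was higher (*Dnmt3l*), where 4.4% of genes were called higher and 4.02% lower, and this call was lost without any 1 of the 4 arrays named above. In DKO ovaries against testes 1 was lower (*Dnmt3l*), where 12.7% of genes were called higher and 13.1% lower. The comparisons share their control and DKO arrays and are not independent of each other.

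Of 8 maintenance partners of *Dnmt1* and *Uhrf1*, 0 rose and 2 fell in DKO ovaries, where 6.71% and 7.94% of all genes were called higher and lower. An unadjusted p under 0.05 was found for 5 of the 8 by limma, as for 6415 of all 18666 genes, and these 5 did not share a direction. The list median was -0.19 against 0.003 for all genes. *Hells*, a chromatin remodeller needed for DNA methylation, fell by 0.82 on the log2 scale (limma adjusted p = 0.00085), from 1.04 to 1.38 in control ovaries to 0.25 to 0.50 in DKO ovaries. *Lig1*, the DNA ligase of the lagging strand, fell by 0.70 (limma adjusted p = 0.0012). In testes the same 2 genes fell, *Hells* by 1.69 and *Lig1* by 0.70, where 16.7% of all genes were called lower. Genes of S phase and proliferation showed no common direction in DKO ovaries, with 2 of 21 higher, 2 lower and a median of 0.06. These counts are near the 6.71% and 7.94% of all genes called higher and lower. By limma 12 of the 21 had an unadjusted p under 0.05, as did 6415 of all 18666 genes. *Ccnb1*, a mitotic cyclin, rose by 1.15 and *Ccne2*, a cyclin of S phase entry, fell by 2.45, and *Top2a*, the DNA topoisomerase of dividing cells, fell by 0.80.

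Of 13 measured genes for imprinting and de novo methylation, 3 rose and 1 fell in DKO ovaries, and 4 rose and 3 fell in testes, where 6.71% and 7.94% of all genes were called higher and lower in DKO ovaries and 17.2% and 16.7% in testes. *Morc1*, needed for methylation of transposons in male germ cells, rose by 2.88 in DKO ovaries (limma adjusted p = 7.0e-05) and by 3.92 in testes. *Dppa3*, which protects methylation in the zygote and marks germ cells, rose by 2.33, and *Ehmt2*, an H3K9 methyltransferase, by 0.60. *Setdb1*, which also methylates H3K9, fell by 0.75 in DKO ovaries and by 1.02 in testes. The list median was 0.22 in DKO ovaries and 0.23 in testes.

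The piRNA pathway directs de novo methylation to transposons in fetal male germ cells. In DKO ovaries 8 of its 14 measured factors rose and 1 fell, with a median of 1.03. Of all genes, 6.71% and 7.94% were called higher and lower there. In testes 8 rose and 1 fell, with a median of 0.84, beside 17.2% and 16.7% of all genes called higher and lower. In *Smad4 (Stella)* ovaries 0 were called by limma, where only 0.134% and 0.145% of all genes were called higher and lower. There 2 of the 14 had an unadjusted p under 0.05, as did 3677 of all 18666 genes, and the list median was -0.17. *Tdrd5* rose by 2.49 in DKO ovaries, *Tdrd9*, an RNA helicase, by 2.46, and *Tdrd12* by 2.25. *Tdrd9* was at 1.71, 1.05 and 2.0 in the DKO ovaries, so that DKO ovary 3 lay within the 1.93 to 2.43 of testes and all 3 lay above the -1.0 to -0.67 of control ovaries. *Tdrkh*, a mitochondrial partner of PIWI proteins, fell by 1.26. *Piwil4*, the nuclear PIWI protein of this pathway, was matched to no probe by its symbol and is not analysed here. As the germ cell markers above share *Ddx4*, *Mael* and *Tdrd5* with this list, and *Dppa3* with the imprinting list, these lists are not separate evidence.

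Of 12 measured genes of DNA demethylation 0 were called in DKO ovaries by limma, where 6.71% and 7.94% of all genes were called higher and lower. An unadjusted p under 0.05 was found for 4 of the 12, as for 6415 of all 18666 genes, and the list median was 0.15. *Tet1*, which oxidises methylcytosine, read -2.77, -2.22 and -2.99 on the DKO arrays, overlapping the -3.18, -2.39 and -2.96 of control ovaries, with a difference of 0.18 (-0.35 to 0.70). Of 8 genes in a list named for readers of methyl-CpG, 0 were called in DKO ovaries by limma and 4 had an unadjusted p under 0.05. The shares of all genes given for the demethylation list apply here too. From this list *Mbd2* (0.66) and *Mbd3* (0.84) rose in testes, where 17.2% of all genes were called higher. Among 13 genes listed for the metabolism of methyl groups 3 rose and 1 fell in DKO ovaries. Of all genes, 6.71% and 7.94% were called higher and lower there. *Shmt1* and *Shmt2*, which feed the folate cycle from serine, rose by 1.82 and 0.68, *Mthfd1* by 0.74, and *Ahcyl1* fell by 0.76. *Shmt1* was at 0.30, 0.08 and 0.02 in DKO ovaries against -1.93 to -1.26 in control ovaries.

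**Figure D4:**
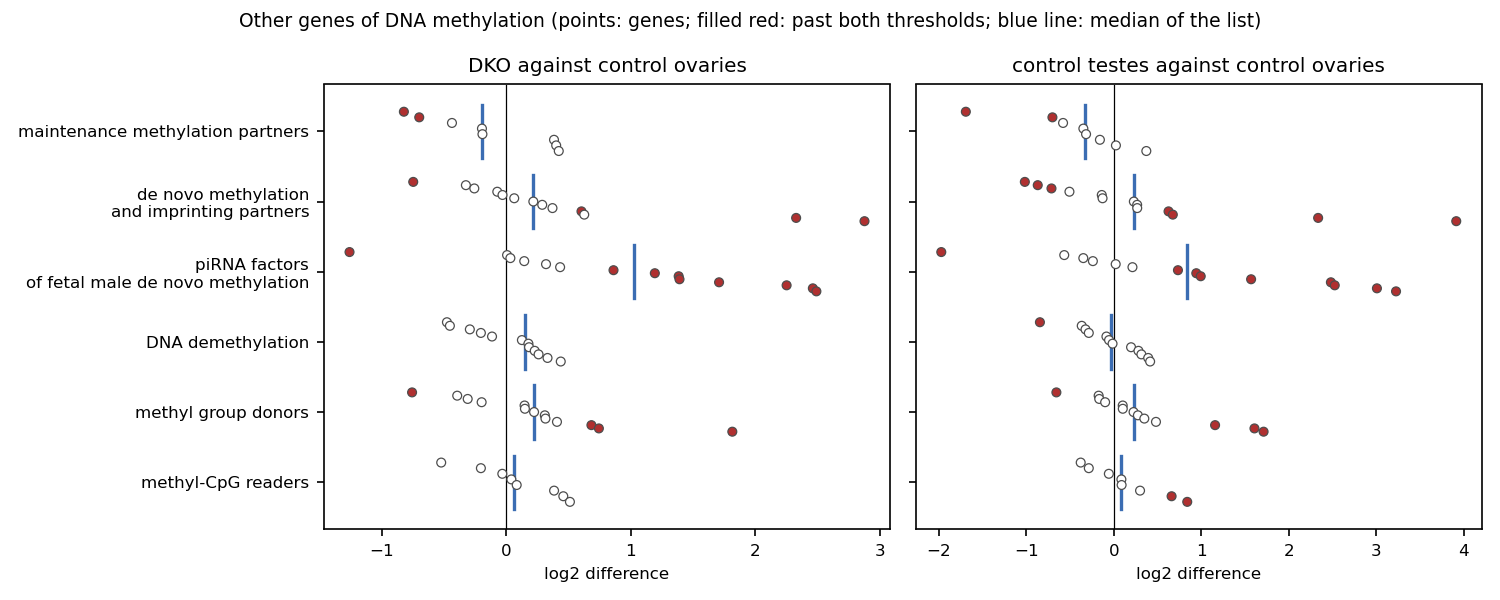
Log2 difference (horizontal axis) of each measured gene in 6 lists of DNA methylation genes (vertical axis) in DKO against control ovaries and in control testes against control ovaries, filled red when past both thresholds, with a blue line at the list median. The piRNA list has the highest medians, 1.03 and 0.84.

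The last list holds genes of the germline whose promoters are methylated in somatic cells. In DKO ovaries 3 of 17 rose and 9 fell (median -0.67), and in testes 4 rose and 10 fell (median -1.52), beside the same shares of all genes, 6.71% higher and 7.94% lower in DKO ovaries and 17.2% and 16.7% in testes. Those with the largest changes in DKO ovaries were *Tex101*, which fell by 2.32, and the meiotic genes *Hormad1* and *Syce1*, which fell by 1.96 and 1.95. *Dpep3* (1.93), *Wfdc15a* (1.61) and *Brdt* (0.90), a bromodomain gene of spermatogenesis, rose. These genes are also part of meiosis or of sex-specific germ cell programmes, and methylation was not measured here. The list overlaps the piRNA list and the germ cell markers, with *Ddx4* and *Mael* in each, and so is not separate evidence.

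The genes whose pattern over the 12 arrays was most like each member were ranked by Pearson r among 18629 genes, as a description without a test, since the arrays fall into 4 groups. For *Dnmt3l* they were *Kcnu1* (0.99), *Fmn1*, *Chga*, *Vwf* and *Tnfrsf12a* (all 0.98), all of which share its contrast between testes and ovaries. For *Dnmt3b* they were *Radx* (0.97), *Det1*, *Dnph1*, *Lrrc8d* and *Pola1* (0.96 to 0.95), the last a subunit of DNA polymerase alpha. For *Dnmt3a* they were *Dhx38*, *Bmp8a*, *Usp43*, *Crebbp* and *Tbc1d2b* (0.97), for *Uhrf1* *Tmpo*, *Gspt1*, *4833420G17Rik*, *Srsf1* and *Atf1* (0.91 to 0.87), and for *Dnmt1* *Kif4*, *LOC100505208*, *Ndufs7*, *Tsen34* and *Glrx5* (0.87 to 0.80).

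**Figure D5:**
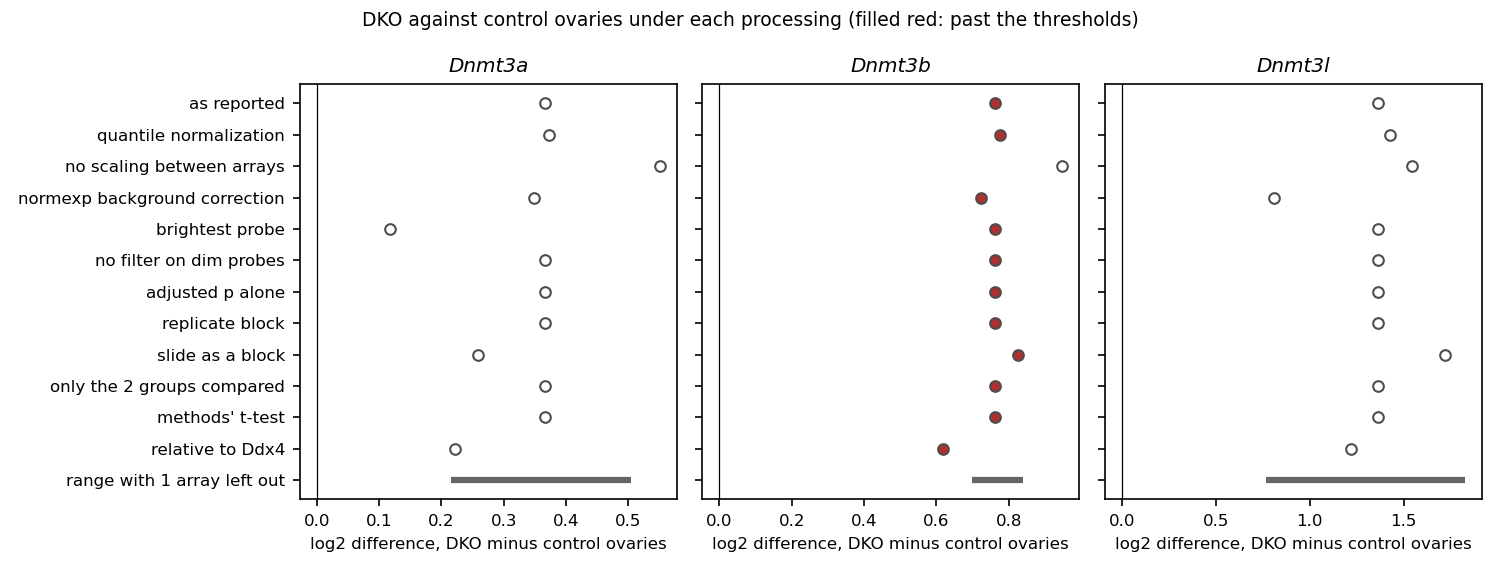
Log2 difference between DKO and control ovaries (horizontal axis) of *Dnmt3a*, *Dnmt3b* and *Dnmt3l* under each way of processing (vertical axis), filled red when past the thresholds, with a grey bar for the range when 1 array is left out. *Dnmt3b* stays between 0.62 and 0.95 and is called in all but the setting without scaling, and *Dnmt3l* is not called in any, between 0.77 and 1.83.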

How the data were processed

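Single-colour Cy3 arrays (Agilent Whole Mouse Genome, annotated on mm9) held RNA of 1 pair of gonads each, 12 arrays in all. The authors deposited the scanner output of Agilent Feature Extraction 11.0.1.1, whose processed intensity is background-corrected within each array, and a table of the same intensity that differed by at most 0.497% (rounding). Here, log2 of the processed intensity minus the 75th percentile of non-control spots was taken, spots marked as outliers were dropped and spots of a probe averaged. Probes well above background on all 3 arrays of at least 1 group were kept (27311 of 41174), and all 8 member probes were among them. Probes of a gene were averaged, giving 18666 genes. One linear model over the 12 arrays was fitted with limma 3.58.1 in R 4.3.3, with Benjamini-Hochberg adjustment over all genes, and was tested on simulated data. Groups came from the sample labels. The number of arrays limits the precision. Members, lists and tests were chosen with earlier results of these data known. Named genes were the members, the called list genes with the largest changes in DKO ovaries (up to 3 a list), *Tet1*, *Piwil4*, *Nanos2*, *Stra8*, *Smad4* and the 5 genes most like each member. *Ddx4*, *Dazl*, *Mael*, *Tdrkh*, *Ehmt2*, *Shmt2*, *Mbd2*, *Mbd3*, *Dpep3*, *Wfdc15a* and *Brdt* fell outside that rule and were named after their values were seen. The array annotation was updated through GRCm38.p6 symbols for 31793 probes. Alternatives were quantile or no scaling, normexp, the brightest probe, no filter, the adjusted p alone, replicate or slide blocks, the compared groups alone, the methods' t-test, scaling to *Ddx4* and each array left out. The result of 1 erythroid marker is not reported here.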

Additional observations from a re-analysis of the deposited data

How the results depend on the processing

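The rise of *Dnmt3b* in DKO ovaries and the *Dnmt3l* difference between control testes and control ovaries kept their direction under every alternative run, and the *Dnmt3b* call was lost only without scaling between arrays (0.95, limma adjusted p = 0.078). The cause of the changes below was not tested. Without scaling, 0 members were called in DKO against control ovaries, 1 in control testes against control ovaries (*Dnmt3a* 1.01, not called) and 0 in DKO against *Smad4 (Stella)* ovaries (*Dnmt3l* 2.11). There *Dnmt1* became 0.045 and 0.047 in the first 2 of these comparisons, and *Dnmt3a* and *Uhrf1* -0.029 and -0.055 in the last. With normexp background correction *Dnmt3l* was 1.14 in DKO against *Smad4 (Stella)* ovaries and 0 members were called, *Uhrf1* was -0.049 there and -0.048 in DKO against control ovaries, and *Dnmt1* was -0.013 and 0.0070 in *Smad4 (Stella)* ovaries and testes against control ovaries. That *Dnmt3l* difference was also not called with no filter (2.35, limma adjusted p = 0.059), in the 2 groups alone (adjusted p = 0.11), by the methods' t-test (adjusted p = 0.25) or with slide as a block (1.42), with 0 members called each time. The slide block gave 0.30 for *Dnmt3l* and -0.036 for *Uhrf1* in *Smad4 (Stella)* against control ovaries and, in DKO ovaries against testes, 0.32 for *Dnmt1*, -0.99 for *Dnmt3a* and 0.77 for *Dnmt3b*, with 3 members called. In that comparison the brightest probe called 2 (*Dnmt3a* -0.83) and the adjusted p alone 3 (*Dnmt3a* -0.58, *Dnmt3b* 0.55). The adjusted p alone called 2 in DKO against *Smad4 (Stella)* ovaries (*Dnmt3b* 0.43). Probe A_52_P76146 of *Dnmt3a* was -0.069 with normexp and -0.085 with the slide block in DKO against control ovaries.

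Relative to *Ddx4*, a setting chosen after seeing the data, *Dnmt1*, *Dnmt3b* and *Uhrf1* were 0.55, 0.78 and 0.46 in testes against control ovaries, *Dnmt3a* and *Uhrf1* were -0.18 and -0.20 in DKO against *Smad4 (Stella)* ovaries, and *Dnmt1*, *Dnmt3a*, *Dnmt3b* and *Uhrf1* were -0.83, -1.29, -0.16 and -0.41 in DKO ovaries against testes, with 3 members called. This setting moved the median of all genes in those 3 comparisons to 0.59, -0.38 and -0.73.

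With 1 array left out, members called ranged from 1 to 3 in DKO ovaries against testes and 0 to 1 in DKO against *Smad4 (Stella)* ovaries. In DKO ovaries against testes *Dnmt3a* ranged from -0.69 to -0.51 and *Dnmt3b* from 0.49 to 0.61. *Dnmt3l* ranged from 1.75 to 2.95 in DKO against *Smad4 (Stella)* ovaries. *Dnmt1* ranged from -0.11 to 0.14 in testes, -0.23 to 0.026 in DKO and -0.068 to 0.19 in *Smad4 (Stella)* ovaries against control ovaries, *Uhrf1* from -0.11 to 0.10 in the last, and probe A_52_P76146 from -0.15 to 0.41 in DKO against control ovaries. Replicate numbers did not pair the arrays: 2 of 18 same-numbered pairs had correlated deviations over 0.1. The replicate block changed no member's call (*Dnmt3b* 0.76, limma adjusted p = 0.0010, in DKO against control ovaries) and called 4 genes in place of 52 in *Smad4 (Stella)* against control ovaries. Those 52 became 14 without scaling, 2 with normexp, 2 with no filter, 13 with the slide block, 9 in the 2 groups alone, 1 by the t-test, 25 relative to *Ddx4*, and 3, 12, 22 and 0 without control ovary 2 or *Smad4 (Stella)* ovary 1, 2 or 3. Genes called in DKO against control ovaries were 2735, against 986 without scaling, 901 with normexp, 1080 with the t-test and 4189 by adjusted p alone. For testes against control ovaries, DKO against *Smad4 (Stella)* ovaries and DKO ovaries against testes, 6339, 1572 and 4807 genes became 3700, 517 and 2385 without scaling, 2649, 224 and 1551 with normexp and 9571, 2540 and 11045 relative to *Ddx4*. In the second of these 916 were called with the slide block, 83 by the t-test, and 850 and 976 without *Smad4 (Stella)* ovary 2 or 3. The dim *Dnmt3l* signal in ovaries limits its precision.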
